A study of Homo sapiens with 2 samples.

Results

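Integrins are the receptors with which cells hold on to matrix and to other cells. Each receptor pairs an alpha with a beta subunit, and the 26 human subunit genes of GENCODE 29 comprise 18 alpha and 8 beta genes. The genes examined here were ITGAM, ITGAX and every other integrin subunit gene listed in either deposited file, found by symbol through the Ensembl gene ID. Of 16145 genes listed in either file, 12 were integrin subunits (8 alpha and 4 beta). Both files held 9 of them, Control alone held ITGA1 and ITGB5, and AG alone held ITGB8. The other 14 subunits, ITGA2, ITGA2B, ITGA3, ITGA4, ITGA5, ITGA6, ITGA8, ITGAD, ITGAE, ITGAV, ITGB1, ITGB2, ITGB6 and ITGB7, were not analysed here.

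The study profiled mRNA of HAL-01 cells, a human line labelled as pre-B acute lymphoblastic leukaemia, in 2 libraries, labelled Control and AG. The AG culture received 1,5-AG (1,5-anhydroglucitol, a sugar related to glucose) at 0.8 mM for 24 h. How the Control culture was handled is not stated in the labels. Values are FPKM, fragments scaled to gene length and library total, from 16240451 fragments in Control and 14857372 in AG. Each group has 1 library, so the differences lack any check between replicates and carry no p-value.

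On leukocytes the subunits alpha L (ITGAL, CD11a), alpha M (ITGAM, CD11b), alpha X (ITGAX, CD11c) and alpha D (ITGAD) pair with one shared partner, beta 2 (ITGB2, CD18). The alpha L receptor binds ICAM proteins on other cells. The alpha M and alpha X receptors, also called complement receptors 3 and 4, bind the complement fragment iC3b and fibrinogen, and CD11b and CD11c are used as markers of maturing monocytes, macrophages, neutrophils and, for CD11c, dendritic cells. The ligand is held through a metal ion in an inserted domain of the alpha chain, at the metal ion-dependent adhesion site.

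The coding stretches of that site are shown because they mark how far the 3 listed leukocyte alpha genes have diverged, and so how well reads can tell them apart. Each is 60 bases of GENCODE 29 transcript sequence, 5′ to 3′ on the plus strand of chromosome 16 (GRCh38), within exon 6 of the transcript with the most coding bases. Capitals mark the 5 codons of the metal-binding motif. The ITGAL stretch lies at chr16:30479348-30479407, the ITGAM stretch at chr16:31270971-31271030 and the ITGAX stretch at chr16:31359717-31359776.
ITGAL: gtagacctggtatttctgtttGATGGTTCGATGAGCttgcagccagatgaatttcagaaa
ITGAM: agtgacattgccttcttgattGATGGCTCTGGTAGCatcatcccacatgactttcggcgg
ITGAX: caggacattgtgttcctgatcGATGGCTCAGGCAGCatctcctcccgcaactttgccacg

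Over the whole coding sequence the aligned bases of ITGAM were 72.1% identical to those of ITGAX and 67.4% identical to those of ITGAL. ITGAX was 77.3% identical to ITGAD. Of all 50-base words in the ITGAM transcripts, 0.364% also occurred in a transcript of another gene, which was ITGAX. For ITGAX the share was 1.72%, with ITGAD first among the other genes, and for ITGAL it was 6.65%, with the antisense genes AC116348.3 and AC116348.2 first. Those antisense genes were listed at no more than 0.213 FPKM in either library, and the small RNA gene RNU7-61P, which overlaps ITGAL, at 4.04 FPKM in Control and 5.52 in AG. MIR4518 and AC116348.1, which also overlap ITGAL, were listed in AG only, at 1.62 and 0.127 FPKM. The strand setting of the counting is not given, so overlapping reads cannot be told apart. No 50-base word of the ITGA7 transcripts occurred in another gene.

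Among the 4 subunits above 1 FPKM, the 3 leukocyte alpha subunits were those whose mRNA was higher in AG, with ITGAM far ahead of the others. ITGAM had 1.55 FPKM in Control against 8.30 in AG, from 143 and 701 fragments. The ratio of AG to Control was 5.36, with a 95% counting interval of 4.47 to 6.46. Counting intervals here are exact Clopper-Pearson intervals from the fragments of the 2 libraries, and cover counting error only. In bulk RNA, more cells that express a gene and more of its RNA per cell cannot be told apart.

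ITGAL, the subunit of lymphocytes and myeloid cells alike, had 8.18 FPKM in Control against 16.2 in AG, giving a ratio of 1.98 (1.80 to 2.18) from 655 and 1188 fragments. ITGAX had 3.94 FPKM and 6.17, a ratio of 1.57 (1.39 to 1.77) from 453 and 649 fragments. All 3 genes were thus higher in AG by more than counting error. For well-covered genes that mark is a low one: the interval of TLN1, a talin gene, left out 1 at a ratio of 1.09 (1.06 to 1.13). The share of all genes whose interval leaves out 1 was not computed. Their common partner ITGB2 was not analysed here, so these values speak of alpha subunit mRNA and not of the assembled receptors.

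ITGA7, whose product pairs with beta 1 as a laminin receptor best known from muscle, was the remaining integrin above 1 FPKM. It had 4.80 FPKM in Control against 4.05 in AG, giving a ratio of 0.845 (0.737 to 0.967) from 497 and 384 fragments. It was thus slightly lower in AG, in the direction opposite to the leukocyte alpha genes.

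**Figure D1:**
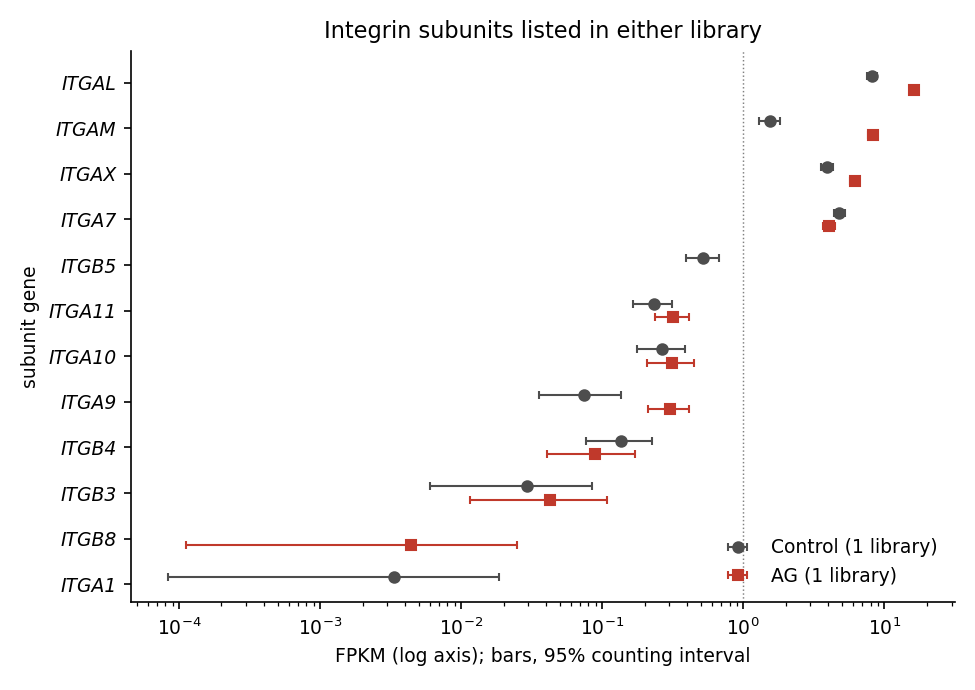
FPKM (log axis) of the 12 integrin subunits listed in either library, in Control (grey circles) and AG (red squares), 1 library each; bars are 95% counting intervals and the dotted line marks 1 FPKM. Only ITGAL, ITGAM, ITGAX and ITGA7 lie above 1 FPKM, and ITGAM lies furthest apart between the libraries among these 4.

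The order of the levels differed between the libraries. In Control it ran from ITGAL at 8.18 FPKM through ITGA7 at 4.80 and ITGAX at 3.94 to ITGAM at 1.55. In AG it ran from ITGAL at 16.2 FPKM through ITGAM at 8.30 and ITGAX at 6.17 to ITGA7 at 4.05. Each of these neighbours differed beyond counting error; the closest were ITGA7 and ITGAX in Control, whose levels had a ratio of 1.22 (1.07 to 1.39). Among all genes listed in Control, ITGAM stood at percentile 62.3 of FPKM, and in AG at percentile 82.5. ITGAL stood at percentiles 82.4 and 89.9, ITGAX at 73.4 and 78.5, and ITGA7 at 75.8 and 73.6.

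The mixture of leukocyte alpha subunit mRNA therefore differed as well as its amount. Summed over ITGAL, ITGAM and ITGAX, the level was 13.7 FPKM in Control and 30.7 in AG. ITGAM supplied 143 of the 1251 fragments of the 3 genes in Control, or 11.4% (95% Clopper-Pearson interval 9.72% to 13.3%). In AG it supplied 701 of 2538, or 27.6% (25.9% to 29.4%). ITGAX supplied 36.2% in Control and 25.6% in AG, and ITGAL supplied 52.4% and 46.8%. Fragment shares weight longer genes more. As shares of the summed FPKM, ITGAM made 11.3% in Control and 27.0% in AG, ITGAX 28.8% and 20.1%, and ITGAL 59.8% and 52.8%. ITGAM was thus the least abundant of the 3 by fragments in Control and passed ITGAX in AG, where their intervals, 25.9% to 29.4% and 23.9% to 27.3%, overlapped. Per length, ITGAM was above ITGAX in AG by a ratio of 1.34 (1.21 to 1.497).

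**Figure D2:**
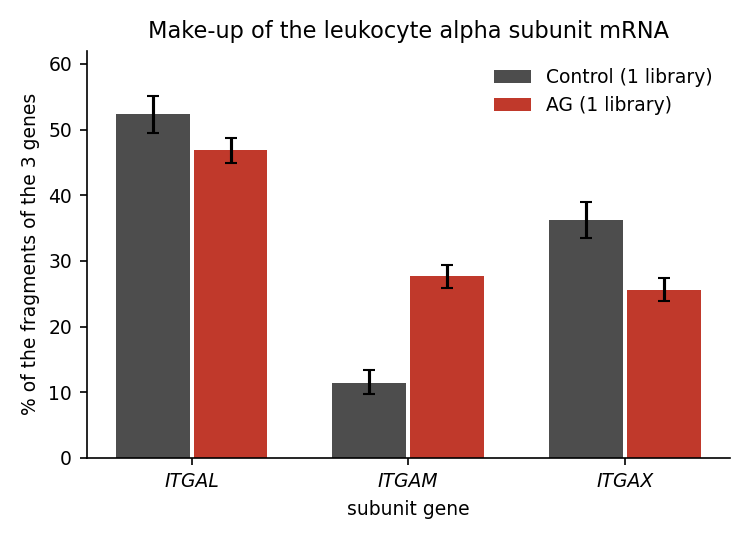
Share (%) of the summed fragments of ITGAL, ITGAM and ITGAX that came from each gene, in Control (grey, 1251 fragments) and AG (red, 2538 fragments), 1 library each; bars are 95% Clopper-Pearson intervals. The ITGAM share is 11.4% in Control and 27.6% in AG, while the shares of ITGAL and ITGAX are smaller in AG.

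The 4 genes also differed from one another in their ratios beyond counting error. The AG to Control ratio of ITGAM was 2.70 times that of ITGAL (95% interval 2.20 to 3.34, from the conditional odds ratio of the fragments). It was 3.42 times that of ITGAX (2.74 to 4.28) and 6.34 times that of ITGA7 (5.04 to 7.99). ITGAL exceeded ITGAX by 1.27 times (1.08 to 1.48), a much smaller gap. These intervals compare the 2 libraries, not the conditions.

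Set against all genes, the ITGAM difference was a large one. On the log2(FPKM + 1) scale, which understates the change of low genes, the AG minus Control difference was 1.87 for ITGAM, 0.91 for ITGAL, 0.54 for ITGAX and -0.20 for ITGA7. Of the 5528 genes listed in both files with a mean of at least 1 FPKM, called expressed here, 7 had a larger positive difference than ITGAM, 85 a larger one than ITGAL and 233 a larger one than ITGAX. On this scale 2 of the 4 expressed subunits, ITGAM and ITGAL, were higher in AG by 1.5-fold or more, against 3.6% of all expressed genes. None of the 4 was at least 1.5-fold lower, against 3.33% of all. ITGAX fell just short on this scale, at a fold of 1.45, and passed on the plain FPKM ratio, where 3 of the 4 were at least 1.5-fold higher against 5.79% of all and none was lower against 6.3%. The median difference of the 4 was 0.72, beside -0.03 over all expressed genes. At a 2-fold threshold ITGAM alone was higher, against 1.18% of all expressed genes, and none was lower, against 0.886%. All 4 were above 1 FPKM in both libraries.

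**Figure D3:**
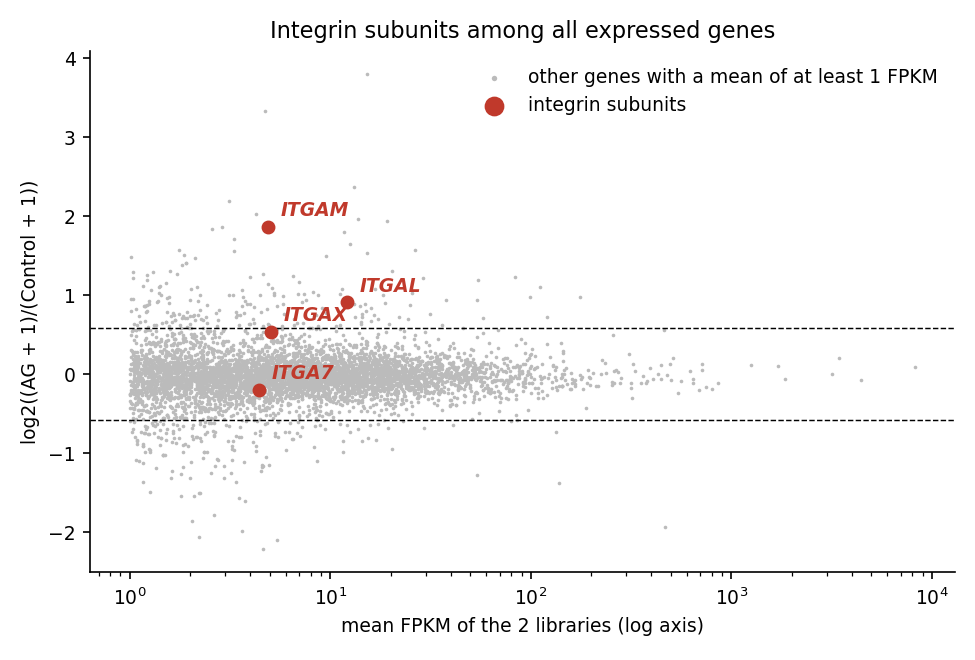
Difference on the log2(FPKM + 1) scale (y axis, AG over Control) against the mean FPKM of the 2 libraries (x axis, log) for 5528 expressed genes (grey), with the 4 expressed integrin subunits in red; dashed lines mark 1.5-fold. ITGAM at 1.87 stands well above the bulk of genes at its mean level, ITGAL lies above the upper line, ITGAX just under it and ITGA7 within the bulk.

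The other 8 listed subunits were low, at no more than 0.520 FPKM in either library. ITGA9, whose product binds tenascin and other matrix proteins, had 0.0745 FPKM in Control against 0.301 in AG. Its ratio of 4.04 (1.97 to 9.12) rested on 10 and 37 fragments. It was the single low subunit in both libraries whose interval left out 1. ITGA10 and ITGA11, the collagen-binding alpha subunits, had 0.266 and 0.232 FPKM in Control and 0.313 and 0.316 in AG. Their ratios were 1.17 (0.671 to 2.06) and 1.36 (0.884 to 2.10), so a difference was not detectable at this depth.

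The listed beta subunits were low as well. ITGB4, the laminin receptor subunit of epithelia, had 0.137 FPKM in Control against 0.0896 in AG, giving a ratio of 0.656 (0.253 to 1.60). ITGB3, the platelet subunit, had 0.0291 and 0.0425 FPKM from 3 and 4 fragments. ITGB5, a partner of alpha V, was listed in Control only, at 0.520 FPKM from 55 fragments. ITGB8 was listed in AG only and ITGA1 in Control only, each on 1 fragment. A gene listed in 1 library has no ratio here, since the files hold no zeros and an unlisted gene has no value. In Control ITGB5 was above ITGA10 by a ratio of 1.95 (1.21 to 3.22), and the subunits below ITGA10 did not differ from their neighbours in level beyond counting error.

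**Figure D4:**
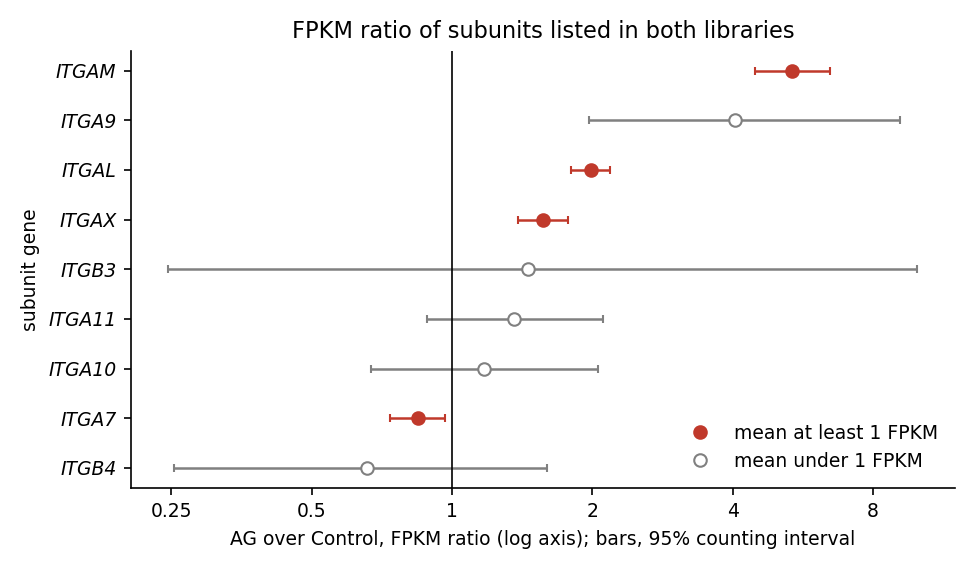
Plain FPKM ratio of AG to Control (log axis) for the 9 integrin subunits listed in both libraries, with 95% counting intervals; filled red points have a mean of at least 1 FPKM, open grey points less, and the line marks 1. The intervals of ITGAM, ITGA9, ITGAL and ITGAX lie above 1, that of ITGA7 lies below it, and those of the other 4 hold 1.

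ITGAM, ITGAX and ITGAD stand in a row on chromosome 16 on the plus strand, with ITGAL further off. In GRCh38 coordinates of GENCODE 29, ITGAM (ENSG00000169896) lies at 31259967 to 31332892 and ITGAX (ENSG00000140678) at 31355134 to 31382997, with 22.2 kb between them. ITGAD begins 10.3 kb after ITGAX. ITGAL (ENSG00000005844), at 30472658 to 30523185, ends 737 kb before ITGAM. ITGA7 (ENSG00000135424) lies on chromosome 12 (minus strand), from 55684568 to 55716043.

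Of the 10 protein-coding genes next to this row, 5 to each side, 4 were listed in both libraries. PRSS36, a serine protease gene on the ITGAM side, had 3.44 FPKM in Control against 5.09 in AG, giving a ratio of 1.48 (1.23 to 1.78). ARMC5, on the ITGAD side, had 4.92 and 3.16, a ratio of 0.642 (0.548 to 0.749). TRIM72 and SLC5A2 were under 0.3 FPKM in both, and their intervals hold 1. The neighbours analysed thus differed in both directions.

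The ITGAM promoter is shown because ITGAM had the largest ratio of the subunits and because studies of myeloid genes have centred on its sites for PU.1, an ETS family factor of myeloid cells, and for Sp1. The RefSeq promoter table (GRCh38.p14) matched 17 of the 26 subunits, ITGAM among them. ITGAL, ITGAX and ITGA7 were not matched. The 250 bases before the RefSeq start site lie at chr16:31259725-31259974 on the plus strand, with AGGAAG (the PU.1 and ETS core) and GGGCGG (the Sp1 box) in capitals on either strand.
ITGAM promoter: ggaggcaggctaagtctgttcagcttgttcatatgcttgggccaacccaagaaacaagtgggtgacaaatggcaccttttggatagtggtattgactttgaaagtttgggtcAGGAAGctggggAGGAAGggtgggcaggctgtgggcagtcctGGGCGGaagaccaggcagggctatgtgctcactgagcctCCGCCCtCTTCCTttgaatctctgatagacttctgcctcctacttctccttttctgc

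Several motifs were searched on both strands over 300 bases, from 250 before the start site to 50 after it. AGGAAG was found 4 times, at positions -138, -126, -50 and 18 with the start site counted as 0, and 33.6% of 35116 promoter windows of that length hold it. GGGCGG was found 2 times, at -96 and -57, and 45.0% of windows hold it. The matches at -57 and -50 do not overlap. The RUNX core TGTGGT was found 1 time, at 24 (13.1% of windows), where no other motif overlaps it. The AP-1 motif TGANTCA (7.71%) and the C/EBP motif TTGCNNAA (10.5%) were not among the letters of this window. A match is a description of the letters and not a bound site.

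The transcription factors that have been studied at ITGAM and ITGAX did not differ as one. Of 18 on the list, 9 were expressed, 3 of them were higher in AG by 1.5-fold or more and none was lower, beside 3.6% and 3.33% of all expressed genes, with a median log2 difference of 0.05. CEBPB, a factor of myeloid maturation and stress, had 4.25 FPKM in Control against 9.63 in AG, giving a ratio of 2.26 (1.82 to 2.82). RARA, a retinoic acid receptor, had 4.71 and 9.79, a ratio of 2.08 (1.83 to 2.37). FOS, an AP-1 subunit, had 6.78 and 12.3, a ratio of 1.81 (1.58 to 2.08). IRF8, the most highly expressed member, had 189 and 196 FPKM. MYB, a factor of progenitors, had 99.2 and 69.3 FPKM, at a ratio of 0.699 (0.675 to 0.722). CEBPE, a factor of granulocyte maturation, and SP1 were listed in AG only, at 1.70 and 24.2 FPKM, so neither has a ratio. PU.1 itself, SPI1, was not analysed here.

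The list of genes that carry signals from bound integrins held the largest difference of any expressed pathway gene. Of 31 kinases and adaptors of outside-in signalling, 9 were expressed, 1 was at least 1.5-fold higher and none was lower, beside 3.6% and 3.33% of all, with a median of -0.05. That gene was FGR, a SRC family kinase that acts after beta 2 integrins in myeloid cells. It had 1.18 FPKM in Control against 29.3 in AG, giving a ratio of 24.7 (19.3 to 32.2) from 65 and 1470 fragments. FCER1G, an adaptor with a tyrosine activation motif, had 16.03 and 20.9, a ratio of 1.30 (1.10 to 1.55). CBL, a ubiquitin ligase and the most highly expressed member, had 30.1 and 36.4, and CDC42, a small GTPase, had 19.6 and 18.6. PTPRC (CD45), a phosphatase that acts on SRC kinases, was listed in AG only, at 26.0 FPKM.

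Of 18 genes of inside-out activation, which switches integrins on, 8 were expressed, and these 8 were within 1.5-fold with a median of 0.08. TLN1, the talin that binds the beta tail, had 53.9 FPKM in Control against 58.9 in AG. FERMT3, the kindlin of blood cells, had 39.2 and 38.8. RAPGEF1, an exchange factor for RAP1, had the largest difference of the list, with 21.8 and 31.3 and a ratio of 1.43 (1.36 to 1.51). Of 13 genes on a list of inhibitors and other regulators of activation, 5 were expressed and within 1.5-fold. All 5 had a difference below 0, with a median of -0.08 beside -0.03 over all expressed genes. Since that wider median is negative, most expressed genes were below 0 as well. Except for ITGB1BP1, their intervals held 1. ITGB1BP1, which competes with talin and kindlin at the beta 1 tail, had 23.8 and 19.4, a ratio of 0.815 (0.768 to 0.865), and SHARPIN had 19.4 and 18.3.

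Of 31 genes of the adhesion complex, 10 were expressed, of which 1 was at least 1.5-fold higher and none was lower, beside 3.6% and 3.33% of all, with a median of 0.03. It was ACTN4, an actinin that crosslinks actin, with 1.89 FPKM in Control against 3.64 in AG, giving a ratio of 1.93 (1.61 to 2.32). ARHGEF6, an exchange factor for RAC, had 35.3 and 35.8, and DOCK2, a RAC activator of blood cells, had 22.7 and 23.3. PARVG, the parvin of blood cells, had 23.2 and 18.4, a ratio of 0.792 (0.751 to 0.835). The list for integrin endocytosis and recycling has 18 genes, of which 10 were expressed and within 1.5-fold (median -0.02), with ARF6 at 48.0 and 46.6 and RAB7A at 46.7 and 47.4.

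Of 22 membrane proteins that sit beside integrins, 7 were expressed and within 1.5-fold on the log2(FPKM + 1) scale (median -0.14). BSG had 152 FPKM in Control against 136 in AG, and the tetraspanin CD63 had 102 and 94.5. CD82, a tetraspanin, had 9.39 and 6.30, a ratio of 0.671 (0.589 to 0.764). CD36, a scavenger receptor, had 2.17 and 3.56, a ratio of 1.64 (1.44 to 1.87). CD82 and CD36 were named after their values were seen.

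Of 41 ligands, 2 were expressed, both within 1.5-fold on the log2(FPKM + 1) scale (median 0.41). NID1, the basement membrane protein nidogen, had 36.6 and 55.2 FPKM, at a ratio of 1.51 (1.44 to 1.58), and F11R, a junction protein that binds alpha L, had 1.86 and 2.38. Among the ligands under the filter that both files listed, those whose interval left out 1 differed in both directions, and they were named after their values were seen. Higher in AG were EDIL3, a ligand of alpha V integrins, FN1 (fibronectin), ICAM3, a ligand of alpha L on leukocytes, and COL1A1, a collagen chain. EDIL3 had 0.0423 FPKM in Control against 1.16 in AG, giving a ratio of 27.3 (10.3 to 102) from 4 and 100 fragments. The ratio was 1.88 (1.30 to 2.76) for FN1, 2.27 (1.13 to 4.79) for ICAM3 and 4.37 (1.18 to 24.1) for COL1A1, the last from 3 and 12 fragments. Lower in AG were COL4A2, a basement membrane collagen chain, and LAMA2, a laminin chain. COL4A2 had 0.297 and 0.0489 FPKM, at a ratio of 0.165 (0.0866 to 0.290) from 93 and 14 fragments, and LAMA2 had 0.149 and 0.0585, at a ratio of 0.394 (0.162 to 0.872).

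Over the 8 pathway lists, 5 of 60 expressed genes were higher in AG by 1.5-fold or more and none was lower, beside 3.6% and 3.33% of all expressed genes. The median over the 60 was -0.03, beside -0.03 over all expressed genes.

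**Figure D5:**
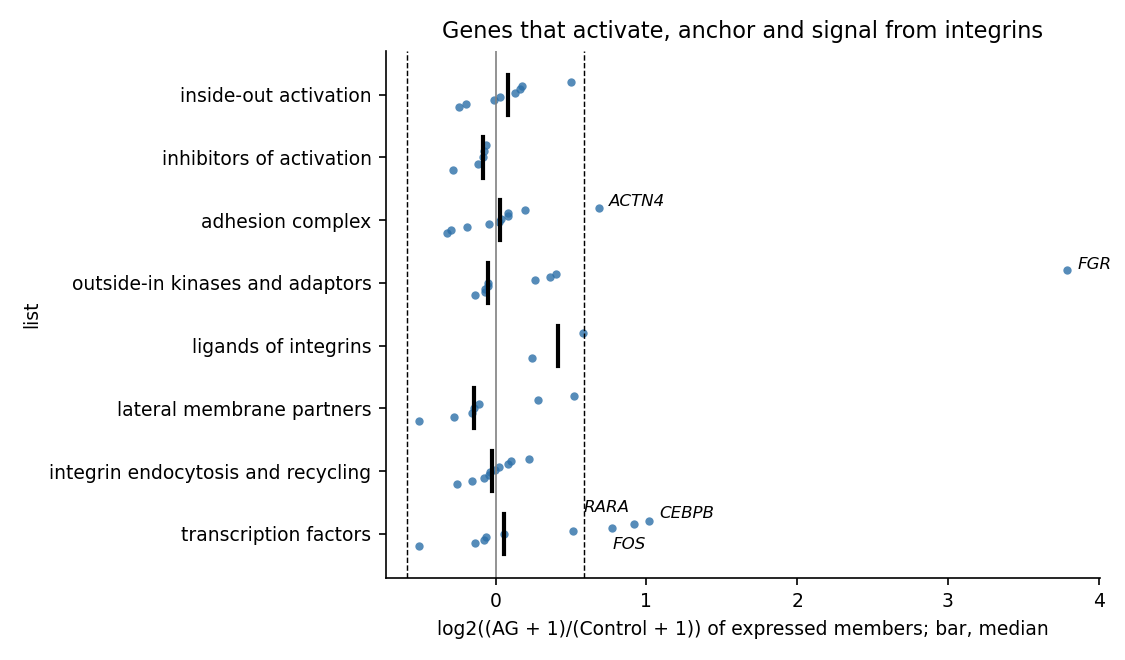
Difference on the log2(FPKM + 1) scale (AG over Control) of each expressed member of the 8 pathway lists; each point is a gene, the bar is the list's median, and dashed lines mark 1.5-fold. FGR at 3.79 stands apart, CEBPB, RARA, FOS and ACTN4 lie past 1.5-fold, and no point lies past 1.5-fold on the lower side.

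Cell type markers were read beside these results, since CD11b and CD11c are themselves markers. Of 15 markers of B cell precursors 10 were listed, 4 of them in both libraries, with a summed level over those 4 of 2.54 FPKM in Control and 2.84 in AG. CD79A, a chain of the B cell receptor, had 0.275 and 0.351 FPKM, and EBF1, a factor of B cell commitment, had 0.194 and 0.0531. These markers were thus low for a line labelled pre-B, and the cells are called here by the line's name. Of 16 monocyte and macrophage markers 8 were listed, 4 of them in both. All 4 had a difference above 0, with a median of 0.35 beside -0.03 over all expressed genes. Their summed level was 132 FPKM in Control and 168 in AG. LYZ (lysozyme), which made most of the difference in that sum, had 75.6 and 104 FPKM. CCR2, a chemokine receptor of monocytes, had 55.7 and 60.9, a ratio of 1.09 (1.04 to 1.15). MARCO, a scavenger receptor, had 0.871 and 1.21, and its interval of 0.835 to 2.35 held 1. The macrophage markers CD68 and CD163 were listed in AG only, at 0.0622 and 0.0463 FPKM, and MSR1 in Control only, at 0.0631.

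Granule genes of promyelocytes and neutrophils differed in both directions. Of 16 such markers 8 were listed, 6 of them in both. Those 6 had a summed level of 876 FPKM in Control and 386 in AG, most of it from CTSG. The lower sum in AG came from CTSG, and without it the others summed higher in AG. Of the 5 expressed, 1 was at least 1.5-fold higher (S100A9, 66.3 and 131 FPKM) and 2 were lower, CTSG at 743 and 194 and MPO at 4.75 and 1.70, beside 3.6% higher and 3.33% lower among all expressed genes. ELANE had 47.6 and 41.8, and CXCR2, a chemokine receptor of neutrophils, had 14.2 and 17.3. Of 13 dendritic cell markers 5 were listed, with IL3RA at 9.83 and 8.74 FPKM the sole one in both and CCR7, CLEC10A, CD1C and FCER1A at no more than 0.138 in the 1 library that listed each. Of 13 T and NK cell markers NKG7 alone was listed, at 17.2 and 10.3 FPKM. Of 13 megakaryocyte and erythroid markers 5 were listed, led by GP1BA at 1.39 FPKM in AG only, and of 10 stromal and endothelial markers 3, at no more than 0.358 FPKM. The part of such differences in the integrin values was not tested.

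The genes whose pair of levels lay nearest to that of a subunit, by Euclidean distance of log2(FPKM + 1) over the 2 libraries, were named as a description. Nearest to ITGAM were NCF1B, a pseudogene of the phagocyte oxidase subunit NCF1, with 1.07 FPKM in Control and 7.43 in AG, then RNU6-30P, ADAMTS15, CDK7 and S100P, at distances of 0.33 to 0.58. The value of NCF1B is uncertain, because its reads can be shared with near-identical copies, and that of RNU6-30P rested on 4 and 11 fragments. S100P, a calcium-binding protein, had 1.18 and 5.43 FPKM. Nearest to ITGAX were ZNF174, SLC7A7, NIPA2, GPR137B and IFI27L2, at distances of 0.03 to 0.09. ITGAX thus had closer neighbours than ITGAM. This follows from their differences, since 7 expressed genes exceeded ITGAM and 233 exceeded ITGAX, and adds no separate information.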

How the data were processed

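The deposited values are FPKM per Ensembl gene ID, made by the authors, with 1 file per library. HTSeq, HISAT2, Trimmomatic and Cufflinks were used with build hg38, per the submitters' processing notes. Versions, annotation, filters and strand setting are not given in the sources used, so reads from antisense genes cannot be told apart. Libraries were made with a stranded mRNA kit, per the labels' protocols.

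Symbols came from GENCODE 29, which held 97.1% of the IDs. Whole fragments were recovered from the steps of the FPKM values: for genes with 1 transcript, FPKM times exon length was whole within 0.01 for 88.4% of 5315 such genes (Control) and 88.1% of 5259 (AG). Each member's fragments followed from the whole length that fits both values. Where several lengths fit, the one nearest the annotated exon length was taken. That length was 4932 bases for ITGAL against 6472 annotated, and 6340 for ITGB3 against 4394, so their fragments rest on an inferred length. Differences are log2((AG FPKM + 1)/(Control FPKM + 1)), with no test, because each group has 1 library. Recovery, intervals and calls were tested on simulated data in which each gene had its annotated length. Recovery at a length unlike the annotated one, as for ITGAL and ITGB3, was therefore not tested.

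The members and lists were chosen with earlier results of these data known. Named were all listed subunits, expressed list members past 1.5-fold, the 2 most abundant members of each pathway list and the 4 with the highest mean of each cell type list, except a few that are not reported here. Any other list gene was named after its values were seen (FCER1G, PTPRC, CEBPE, RAPGEF1, PARVG, ICAM3, MPO and markers listed in 1 library among them). Alternatives were other pseudocounts, filters, scalings and thresholds. Scripts ran under Python 3.11.15 with scipy 1.17.1, numpy 2.4.6, matplotlib 3.10.9 and pandas 2.3.3.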

Additional observations from a re-analysis of the deposited data

How the results depend on the processing

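ITGAM, ITGAL and ITGAX were higher in AG, and ITGA7 lower, under every pseudocount and scaling tried. The log2 difference of ITGAM was 2.349 with a pseudocount of 0.1 FPKM, 1.022 with 5 FPKM and 2.422 with none, the last chosen after seeing the data. That of ITGAX was 0.3214 with 5 FPKM. The count of subunits at least 1.5-fold higher, 2, was 1 where the filter was raised to 5 FPKM (ITGAM has a mean of 4.92) and 1 at a threshold of 2-fold. It was 3 with a pseudocount of 0.1 FPKM or none. The median of the expressed subunits was 0.5041 with a pseudocount of 5 FPKM and 0.09466 over all 9 subunits listed in both files, 5 of which are under 1 FPKM. Rescaling to a common total or by the median of ratios moved no count. Depth limits the low subunits: ITGB3, ITGB8 and ITGA1 rest on 1 to 4 fragments. The spread between cultures is unknown.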
